A study of Mus musculus with 17 samples.

Results

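The genes of the axonemal dynein heavy chains, the radial spokes, intraflagellar transport and the Bbs family were examined for peaks of the histone variant H3.3 at their transcription starts in mouse pachytene spermatocytes. Members were the autosomal protein-coding genes of GENCODE M21 whose symbols begin with Dnah, Dnai, Rsph, Ift or Bbs followed by a number. There were 45 of them among 20807 autosomal protein-coding genes. They comprised 15 Dnah, 8 Rsph, 14 Ift and 8 Bbs genes. No symbol of the Dnai form exists in this annotation, which calls the intermediate chains Dnaic1 and Dnaic2, so those genes are described apart from the members.

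H3.3 was mapped by CUT&RUN, a method that cuts and releases antibody-bound chromatin for sequencing with a nuclease tethered to the antibody. The series holds 17 libraries, of which the 12 made with ARID1A antibodies were not analysed here. The other 5 were H3.3 libraries, 2 from Arid1a WT and 3 from Arid1a cKO. Arid1a WT males carried floxed Arid1a (fl/fl or fl/+) without Cre. Arid1a cKO males were Arid1a fl/fl with the Stra8-Cre Tg/0 transgene, which is expressed in spermatogonia. All were adults on a CD1 background, and germ cells from pooled testes were enriched for pachytene spermatocytes by Sta-Put sedimentation. Excision by Stra8-Cre was incomplete, so Arid1a cKO fractions also held some cells that had kept ARID1A. No expression values entered, so the identity of the cells rests on the labels.

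Motile cilia and the sperm flagellum are built on the axoneme, a ring of doublet microtubules around a central pair. Dynein heavy chains are the ATPase motors of the outer and inner arms that slide the doublets, and radial spokes link the doublets to the central apparatus. Intraflagellar transport carries cargo along the axoneme in trains of complexes A and B. The BBSome is an adaptor that couples membrane proteins to these trains. Spermatocytes already transcribe many genes of the flagellum that spermatids later assemble. H3.3 is deposited outside replication and is commonly found at active promoters, while ARID1A is a subunit of BAF chromatin remodelers.

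Promoter sequences are shown for the member with the highest H3.3 fold enrichment in each group, so that the base composition of a promoter with a peak can be compared between groups, and for Dnah1, the first dynein heavy chain in alphabetical order without a peak. Each promoter runs 5′ to 3′ from 250 bases before to 50 bases after the RefSeq start on GRCm38.p6 (mm10). Capitals mark the bases that lie inside the gene's Arid1a cKO peak row. The whole row at Dnah10 is printed as well because it is short.
Dnah10 promoter, chr5:124724835-124725134, plus strand: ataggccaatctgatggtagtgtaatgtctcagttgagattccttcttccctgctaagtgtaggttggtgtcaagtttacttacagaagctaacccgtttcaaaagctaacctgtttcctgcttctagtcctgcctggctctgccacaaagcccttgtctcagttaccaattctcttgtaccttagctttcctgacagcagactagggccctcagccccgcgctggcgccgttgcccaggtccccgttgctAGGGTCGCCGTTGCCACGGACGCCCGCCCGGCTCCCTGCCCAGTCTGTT
Dnah10 Arid1a cKO peak row, chr5:124725086-124725164, plus strand: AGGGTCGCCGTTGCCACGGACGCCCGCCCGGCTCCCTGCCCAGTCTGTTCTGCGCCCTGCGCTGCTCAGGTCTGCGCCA
Rsph3a promoter, chr17:7945364-7945663, plus strand: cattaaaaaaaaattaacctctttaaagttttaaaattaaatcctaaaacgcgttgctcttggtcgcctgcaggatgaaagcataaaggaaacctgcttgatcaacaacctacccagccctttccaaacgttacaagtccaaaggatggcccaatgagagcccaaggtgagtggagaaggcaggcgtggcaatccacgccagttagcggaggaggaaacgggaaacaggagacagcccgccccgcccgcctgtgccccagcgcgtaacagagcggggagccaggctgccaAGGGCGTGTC
Ift57 promoter, chr16:49699044-49699343, plus strand: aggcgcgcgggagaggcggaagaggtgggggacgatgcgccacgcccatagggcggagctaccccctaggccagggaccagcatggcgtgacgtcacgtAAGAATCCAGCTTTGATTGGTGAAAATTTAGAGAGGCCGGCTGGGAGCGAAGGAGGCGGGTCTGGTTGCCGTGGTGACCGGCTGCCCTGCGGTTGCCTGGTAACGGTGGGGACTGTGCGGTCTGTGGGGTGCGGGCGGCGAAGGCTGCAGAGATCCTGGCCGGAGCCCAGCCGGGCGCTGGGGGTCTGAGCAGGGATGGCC
Bbs10 promoter, chr10:111298429-111298728, plus strand: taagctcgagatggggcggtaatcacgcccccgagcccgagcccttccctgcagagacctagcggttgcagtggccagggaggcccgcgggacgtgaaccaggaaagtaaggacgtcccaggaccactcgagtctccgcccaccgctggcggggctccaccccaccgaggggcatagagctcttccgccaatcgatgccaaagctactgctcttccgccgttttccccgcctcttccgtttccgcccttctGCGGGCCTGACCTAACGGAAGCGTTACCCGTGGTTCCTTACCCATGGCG
Dnah1 promoter, chr14:31323847-31324146, minus strand: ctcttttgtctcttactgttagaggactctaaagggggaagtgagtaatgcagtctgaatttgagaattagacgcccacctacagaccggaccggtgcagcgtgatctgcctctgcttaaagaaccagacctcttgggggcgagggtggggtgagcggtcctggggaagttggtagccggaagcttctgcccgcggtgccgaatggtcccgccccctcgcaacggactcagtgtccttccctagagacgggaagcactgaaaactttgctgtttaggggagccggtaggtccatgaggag
The Dnah10 window had 12 CpG dinucleotides and the Rsph3a window 15, against 25 at Ift57 and 27 at Bbs10. Dnah1, which had no peak, also had 15. These single genes do not compare the groups. Among transport and Bbs genes with a row and a RefSeq start the count ran from 13 (Bbs5) to 35 (Ift140). The row at Rsph3a began near the end of its window because it was centred on a downstream start of the GENCODE annotation.

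To see at which of these genes H3.3 peaks lay, each gene was scored for a peak row with any base within 1 kb of one of its annotated transcript starts. Each genotype was deposited as 1 list of peaks common to its replicates. Every value below therefore rests on that list without a replicate spread, and no test of the genotype was possible. In Arid1a WT none of the 45 genes had a row, which by the 95% Wilson interval allows a share of up to 7.87%. The share of all 20807 genes was also 0, since only 4 of the 228 rows of the Arid1a WT list were autosomal. In Arid1a cKO 13 of the 45 genes had a row, 28.9% (95% Wilson interval 17.7 to 43.4), beside 29.5% of all autosomal protein-coding genes (6145 genes). As a whole the members therefore stood at the background share in both lists. The lowest fold enrichment of any row was 4.85 in the Arid1a WT list and 2.80 in the Arid1a cKO list. Rows as weak as many of those in Arid1a cKO were thus not in the Arid1a WT list, and the counts were not made at a like level. Sequencing depth is unknown, and the difference in depth, in replicate number and in genotype between the lists cannot be told apart.

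The share was uneven among the groups. Dynein heavy chains had a row at 1 of 15 genes (6.67%, interval 1.19 to 29.8). Radial spoke genes had a row at 1 of 8 (12.5%, interval 2.24 to 47.1). Intraflagellar transport genes had rows at 6 of 14 (42.9%, interval 21.4 to 67.4), and Bbs genes at 5 of 8 (62.5%, interval 30.6 to 86.3). Counted as structural parts of the axoneme, dynein and radial spoke genes had rows at 2 of 23 (8.70%, interval 2.42 to 26.8), and the interval lay below the 29.5% of all genes. Transport and Bbs genes together had rows at 11 of 22 (50.0%, interval 30.7 to 69.3), and the interval lay just above it. These intervals cover counting error only and treat genes as independent. The difference between the groups was not tested.

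**Figure D1:**
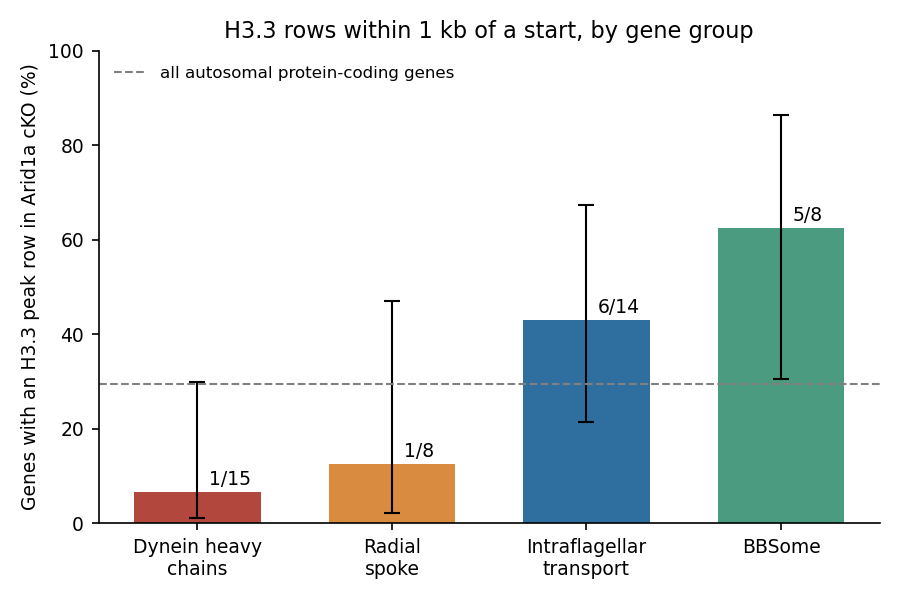
Share of genes (%, y axis) with an H3.3 peak row of the Arid1a cKO list within 1 kb of a transcript start, by gene group (x axis). Bars are shares, error bars 95% Wilson intervals, and labels give genes with a row over genes in the group, with the dashed line at 29.5% for all autosomal protein-coding genes. Heavy chains and radial spokes stand below the line and transport and Bbs genes above it, with wide intervals.

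Part of the transport count came from rows at shared promoters. At Ift140, Ift46 and Ift80 the start of a protein-coding neighbour on the opposite strand was nearer to the centre of the row than the gene's own start. When a row was given only to genes whose own start was nearest among coding starts, a choice made after the data had been seen, intraflagellar transport kept 3 of 14 genes (21.4%, interval 7.57 to 47.6). The Bbs genes kept 5 of 8 and the axonemal genes 2 of 23, while the share of all genes was 25.5%. Transport and Bbs genes together then had 8 of 22 (36.4%, interval 19.7 to 57.0), an interval that includes the share of all genes. The axonemal interval of 2.42 to 26.8 then includes it too.

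Among dynein heavy chains only Dnah10 had a row. Dnah10 is a heavy chain of the inner arm. Its row at chr5:124725086-124725164 had a fold of 2.91 over the IgG background and a −log10 q of 2.11, close to the lowest fold of any row in the list, 2.80. The row was 79 bp wide, beside a median width of 449 bp over all genes with a row, which put it at the 0.260 percentile of those genes. It began 1 base after the annotated start and its centre lay 40 bp downstream, in an exon. The start of an antisense transcript, 4930404A12Rik, lay 46 bp from the centre, and the libraries carry no strand, so the row cannot be given to either transcript. Its peak name stood on 1 row of the list, whereas the names at the other 12 members stood on 2 overlapping rows, and 91.7% of all genes with a row had a name on 2 or 3 rows. Rows of 1 name carry the same fold and differ at most in their ends. The ends were read as those of overlaps between replicate peaks, so a width here is taken as that of an overlap. Whether a fold comes from 1 replicate or from several is not known.

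The heavy chains without a row were Dnah1, Dnah2, Dnah3, Dnah5, Dnah6, Dnah7a, Dnah7b, Dnah7c, Dnah8, Dnah9, Dnah11, Dnah12, Dnah14 and Dnah17. All 5 outer arm chains (Dnah5, Dnah8, Dnah9, Dnah11 and Dnah17) were among them, as were 8 of 9 inner arm chains. Dnah14 was given to neither arm, and the grouping was made after the values were seen. Their nearest row lay between 10610 bp (Dnah1) and 876283 bp (Dnah9) from a start, with a median of 55972 bp. Repeated sequence was measured as the share of 31-mers within 1 kb of the gene's outermost start that occur once in the genome. Other starts were not covered, and its part in the missing rows was not tested. The share was 18.8% at Dnah8, 77.0% at Dnah7a, 77.4% at Dnah7b, 80.6% at Dnah7c and 78.1% at Dnah12. Among the 10 heavy chains with at least 90% of such 31-mers, 1 had a row.

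Among radial spoke genes only Rsph3a had a row. RSPH3 is a spoke protein that also anchors protein kinase A, and the mouse has the copies Rsph3a and Rsph3b. The row at chr17:7945654-7946317 was the widest among the members, at 664 bp, with a fold of 5.10 and a −log10 q of 5.19. Its centre lay 9 bp upstream of a start of Rsph3a and 96 bp from that of the antisense gene E430024P14Rik. Only 43.2% of the 31-mers in the row occurred once in the genome, and 56.8% also occurred within 1 kb of the outermost start of Rsph3b. Rsph3b itself had no row, its nearest being 120000 bp away. No filter on mapping quality was described, so the row cannot be given to Rsph3a alone. Rsph1, Rsph4a, Rsph6a, Rsph9, Rsph10b and Rsph14 had no row either, and over the 7 genes without one the nearest row lay 16732 to 179367 bp away.

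The highest H3.3 enrichment of any member was at Ift57. IFT57 is a peripheral subunit of complex B. The row at chr16:49699143-49699670 had a fold of 8.70, a −log10 q of 14.55 and a width of 528 bp. It lay around the start, with its centre 51 bp downstream. The fold was at the 99.2 percentile of all autosomal protein-coding genes with a row, whose median was 4.12.

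The rows at Ift52 and Ift81 also covered a start of the gene. IFT52 and IFT81 are core subunits of complex B. The row at Ift52 (chr2:163017025-163017658) had a fold of 3.73 and a width of 634 bp and was centred 12 bp upstream of a start. That at Ift81 (chr5:122614236-122614481) had a fold of 3.51 and a width of 246 bp and was centred 86 bp downstream. Both folds were below the median of all genes with a row.

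The rows given to Ift46, Ift140 and Ift80 lay upstream, toward a divergent neighbour. IFT46 and IFT80 belong to complex B and IFT140 to complex A. The row at Ift46 (chr9:44767400-44767910) had a fold of 5.05 and a width of 511 bp, with its centre 253 bp from Ift46 and 143 bp from Arcn1, a coatomer subunit gene. The row at Ift140 (chr17:25015479-25015681) had a fold of 5.17 and a width of 203 bp, with its centre 505 bp from Ift140 and 202 bp from Cramp1l. The row at Ift80 (chr3:69005002-69005324) had a fold of 4.63 and a width of 323 bp, with its centre 593 bp from Ift80 and 148 bp from Smc4, a condensin subunit gene. At each of these genes the row centre was nearer to the start of the neighbour. The row at Ift46 covered the starts of both Ift46 and Arcn1, so it cannot be given to either gene alone. Across the members 4 of 13 rows lay within 1 kb of another coding start, beside 26.8% of all genes with a row.

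By complex, 1 of 3 genes of complex A and 5 of 11 of complex B had a row, a grouping made after the values were seen. The transport genes without a row were Ift20, Ift22, Ift27, Ift43, Ift74, Ift88, Ift122 and Ift172. Ift172 came nearest to the limit of 1 kb from outside, with a row 2763 bp from a start. From inside, the farthest were the row edges at Ift80, 432 bp away, and at Bbs2, 420 bp away. Ift88, known for the polycystic kidney and cilium defects of its mutants, had its nearest row at 45047 bp.

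**Figure D2:**
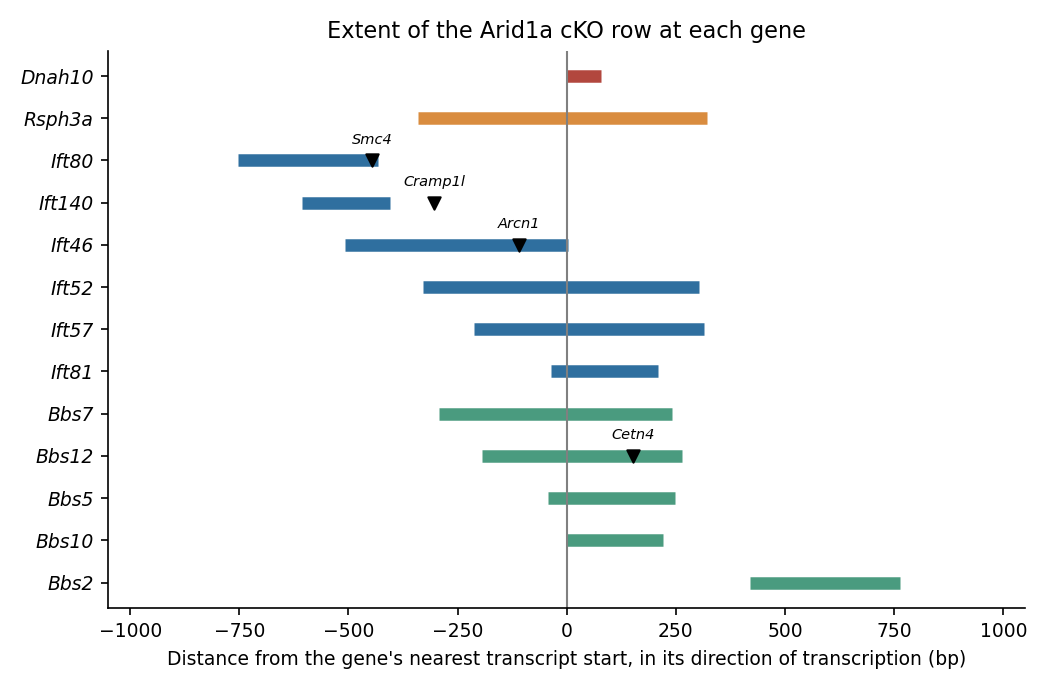
Extent of the Arid1a cKO row at each of the 13 genes with one, as distance in bp from the gene's nearest transcript start in its direction of transcription (x axis, negative upstream). Bars are rows, coloured by group as in the plot of fold and width, and triangles mark the nearest coding neighbour's start. Rows cover a start at 8 genes, and at Ift80, Ift140 and Ift46 they lie on the upstream side by Smc4, Cramp1l and Arcn1.

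Bbs genes had the highest share of rows of the groups when no threshold was set on q. With a −log10 q of at least 3 their share was 25.0%, below the 42.9% of intraflagellar transport. Bbs2, Bbs5 and Bbs7 encode subunits of the BBSome and had rows, while Bbs1, Bbs4 and Bbs9, also subunits, had none. Bbs10 and Bbs12 encode chaperonin-like proteins that assist BBSome assembly, and both had a row. The nearest rows to the 3 genes without one lay 7135 bp (Bbs9), 18608 bp (Bbs1) and 132199 bp (Bbs4) away.

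Bbs10 had the highest fold of the group, 6.43 with a −log10 q of 8.27, in a row of 221 bp (chr10:111298680-111298900) centred 111 bp downstream of the start in an exon. Its fold stood at the 92.9 percentile of genes with a row and the width of its row at the 6.58 percentile. On the reading given for Dnah10, the fold is that of the whole called peak and the width that of the overlap between replicates. Bbs7 had a fold of 4.46 over 535 bp (chr3:36613043-36613577), centred 25 bp upstream of a start. Bbs12 had a fold of 3.58 over 460 bp (chr3:37312361-37312820), centred 34 bp from its own start and 117 bp from that of Cetn4, a centrin gene on the opposite strand. Bbs2 and Bbs5 had weaker rows. The fold was 3.33 over 345 bp at Bbs2 (chr8:94098164-94098508), centred 592 bp downstream of the start, and 2.90 over 291 bp at Bbs5 (chr2:69647220-69647510), centred 102 bp downstream. The value at Bbs5 was the lowest fold of any member.

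**Figure D3:**
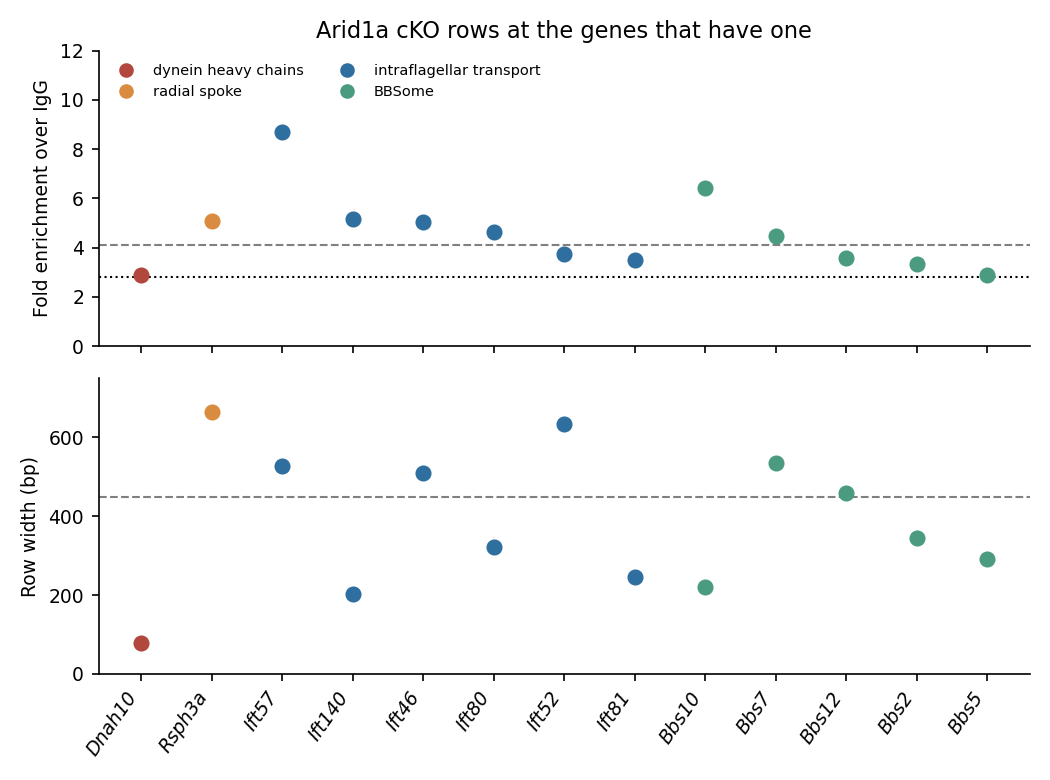
H3.3 fold enrichment over IgG (upper axis) and row width in bp (lower axis) of the Arid1a cKO row at each of the 13 genes, coloured by group. Each point is 1 value of the list with no replicate error. Dashed lines are the medians of all genes with a row (4.12 and 449 bp) and the dotted line is the lowest fold in the list, 2.80. Ift57 has the highest fold, 8.70, and Dnah10 the narrowest row, 79 bp.

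In size the members' rows resembled those of other genes. The median fold over the 13 genes was 4.46 (range 2.90 to 8.70), beside 4.12 (2.81 to 14.87) over the 6145 genes. The median width was 345 bp, beside 449 bp. Transport rows had a median fold of 4.84 and a median width of 417 bp, and Bbs rows 3.58 and 345 bp. The row centre lay within 200 bp of a start at 9 of the 13 genes, downstream at 7 and upstream at 6. A −log10 q of at least 3 was reached at 9 of the 45 members, beside 20.8% of all genes, and of at least 5 at 5 members (Bbs10, Bbs7, Ift46, Ift57 and Rsph3a), beside 9.56%.

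Promoters of the groups differed in CpG content, which the choice of genes did not use. CpG content was measured as the ratio of observed CpG to that expected from the C and G in the 300 bases at the RefSeq start. RefSeq entries matched by symbol for 38 of the 45 members and for 15686 genes (75.4%). No entry was found for Dnah3, Ift122, Ift80, Ift81, Rsph1, Rsph10b and Rsph4a. The dynein heavy chains had a median of 0.45 (range 0.10 to 0.64), below the 0.61 of all genes with an entry. Dnah12, at 0.10, had the lowest value. The Bbs genes had a median of 0.76 (0.56 to 0.90), and every one of the 8 exceeded the median of the heavy chains. Transport and Bbs genes together had a median of 0.79, and dynein and radial spoke genes 0.50.

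Across all genes the presence of a row went with CpG content. Genes with a row had a median ratio of 0.83 and genes without one 0.39. With genes divided by the ratio into 3 bands of equal size, a row was present at 3.94% of genes in the lowest band, at 32.4% in the middle band (0.35 to 0.77) and at 57.5% in the highest band. Members followed the same order, with rows at 0 of 3, 5 of 25 (20.0%) and 6 of 10 (60.0%). In the 300 bases no axonemal gene lay in the highest band and no transport or Bbs gene in the lowest. In the middle band, where both kinds were present, rows stood at 2 of 16 axonemal genes (12.5%, interval 3.50 to 36.0) and at 3 of 9 transport and Bbs genes (33.3%, interval 12.1 to 64.6). The difference between the kinds within a band was not tested. In a window of 1000 bases centred on the start, rows stood in the middle band at 1 of 13 axonemal genes (7.69%, interval 1.37 to 33.3) and at 6 of 12 transport and Bbs genes (50.0%, interval 25.4 to 74.6). The highest band of that window held 2 axonemal genes, 1 with a row, and 7 transport and Bbs genes, 3 with a row (42.9%), so the order of bands seen with 300 bases did not hold for transport and Bbs genes. Fewer than 80% of all genes had an entry, so the shares were also computed with GENCODE starts, over 20800 genes. The 7 members without an entry were left out here too. Rows then stood at 5.50%, 27.2% and 55.9% of all genes in the bands, and at 0 of 4, 6 of 25 (24.0%) and 5 of 9 (55.6%) members.

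**Figure D4:**
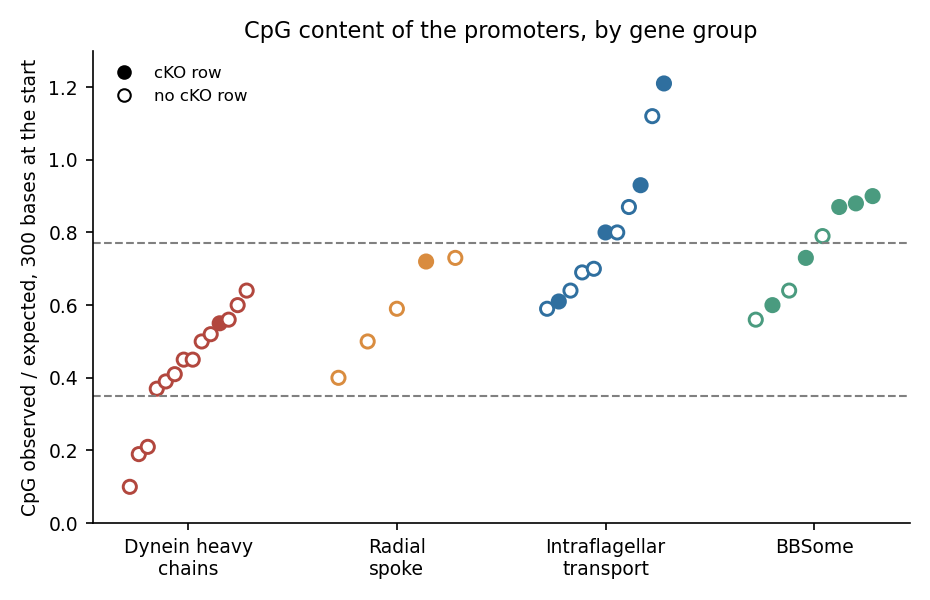
Ratio of observed to expected CpG in the 300 bases at the start (y axis) for the 38 members with a RefSeq entry, by gene group (x axis). Filled points have an Arid1a cKO row, open points have none, and dashed lines at 0.35 and 0.77 divide all genes into 3 bands of equal size. No heavy chain or radial spoke gene lies above the upper line, and 10 transport and Bbs genes do.

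Sequence motifs of ciliary and meiotic regulators were counted in the same 300 bases on both strands. RFX factors bind the X-box, a paired site in which one arm is commonly GTTGCC, and are known regulators of ciliary genes. GTTGCC was found in 13 of 38 members (34.2%), beside 12.3% of all promoters with an entry. The paired form, GTNNCC and GGNNAC with 0 to 3 bases between, was found in 6 members (15.8%, against 4.23%). They were Bbs1, Bbs4, Bbs7, Ift22, Ift57 and Rsph9, and none was a heavy chain. A paired site that begins with GTTGCC is counted under both motifs.

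Of the printed promoters, Ift57 held 2 paired sites, GTTGCCGTGGTGAC from position -87 and GTTGCCTGGTAAC from position -60 relative to the start, both inside its row. Dnah10 held GTTGCC once inside its row and once before it, and no paired site. Bbs10, the strongest of the Bbs genes, held neither form. GTTGCC was in 5 of 11 members with a row (45.5%) and in 8 of 27 without one (29.6%), and the paired form in 2 of 11 (18.2%) and 4 of 27 (14.8%). Over all genes with a row GTTGCC was in 13.3%, beside 12.3% of all promoters, and the paired form in 5.42%, beside 4.23%.

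CAGTTG, the core recognised by MYB proteins such as the meiotic regulator MYBL1 (A-MYB), was found in 11 of 38 members (28.9%), beside 11.8% of all promoters. It was in 7 of 14 heavy chains and in none of the 8 Bbs genes. CAGTTG and GTTGCC can overlap by 4 letters. CAGTTG was in 3 of 11 members with a row and 8 of 27 without one, and in 8.63% of all genes with a row. The GC box GGGCGG was in 9 of 11 members with a row and in 11 of 27 without, in the same direction as over all genes, where 71.9% of those with a row and 48.6% of all promoters held it. CCAAT was in 19 members (50.0%, against 38.5%). TGACGTCA, the site of CREB and CREM factors, was in Dnah6 and Ift57 (5.26%, against 2.46%). These matches are descriptions of letters and not of binding.

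Genes that work with the members but carry other names were counted from lists of 95 genes. A row stood at 45 of them (47.4%, interval 37.6 to 57.3), beside 29.5% of all autosomal protein-coding genes. At 18 of these 45 (40.0%) the row also lay within 1 kb of the start of another coding gene, beside 26.8% of all genes with a row, so the counts of several lists include shared promoters. The lists with the lowest shares held structural parts of the axoneme, though the interval of each includes the share of all genes. Rows stood at 2 of 12 central apparatus genes (16.7%, interval 4.70 to 44.8), namely Spag16 with a fold of 3.57 and Cfap54 with 3.36. They stood at 2 of 10 genes of the nexin-dynein regulatory complex and the molecular ruler (20.0%, interval 5.67 to 51.0). These were Drc3 and Iqcd, and in both the row also lay within 1 kb of a neighbour's start. Of 5 docking genes, Ccdc63 had a row (20.0%, interval 3.62 to 62.4), with a fold of 3.64.

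Dynein genes outside the rule had a higher share of rows than the heavy chains within it, a difference that was not tested. Rows stood at 7 of 10 other heavy and intermediate chain genes (70.0%, interval 39.7 to 89.2), beside 29.5% of all genes. Most of these belong to cytoplasmic motors. Dync2h1 (fold 4.37, a row also near a Dcun1d5 start), Wdr34 (3.86) and Wdr60 (6.48) encode chains of dynein-2, the retrograde transport motor, and Dync1h1 (4.48) and Dync1i1 (2.91) encode chains of cytoplasmic dynein 1. The axonemal intermediate chain genes Dnaic1 (6.12) and Wdr78 (4.52) also had rows, both within 1 kb of a neighbour's start, while Dnaic2 and Wdr63 had none. The list of light chains, which also held light intermediate chains, had rows at 6 of 12 genes (50.0%). Its interval of 25.4 to 74.6 includes the share of all genes. The genes with a row were Dnal1 (fold 4.16) and, with folds of 2.91 to 5.89, Dynll1, Dynll2, Tctex1d2, Dync1li1 and Dync1li2.

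Assembly factors, which fold and preassemble dynein arms in the cytoplasm, had rows at 9 of 14 genes (64.3%, interval 38.8 to 83.7), beside 29.5% of all genes. At 7 of the 9 (Dnaaf1, Dnaaf2, Dnaaf5, Zmynd10, Pih1d1, Pih1d2 and Wdr92) the row also lay within 1 kb of another coding start, which leaves Lrrc6 and Ruvbl1. The row given to Zmynd10 was centred 1092 bp from its start. Dnaaf5 had the highest fold of all genes in these lists, 10.04, in a row that also lay within 1 kb of a Prkar1b start. Transport subunits and motors outside the rule had rows at 7 of 15 (46.7%), with an interval of 24.8 to 69.9 that includes the share of all genes. The rows at Hspb11, Cluap1 and Kif17 were shared in this way. The complex B gene Cluap1 had a fold of 8.43 and Kif3a, a motor subunit of kinesin-2, 6.62. BBSome partners had rows at 6 of 9 (66.7%, interval 35.4 to 87.9), of which those at Mkks, Bbip1 and Sdccag8 were shared. Among them were the chaperonin-like Mkks at 8.10 and Arl6, the small GTPase that recruits the BBSome, at 5.96. Of 8 genes for ciliary transcription factors 5 had a row (62.5%, interval 30.6 to 86.3), none of them near another coding start. They were Rfx1 (fold 4.32), Rfx3 (3.87), Foxj1 (4.00), Mcidas (3.13) and Mybl1 (5.57).

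**Figure D5:**
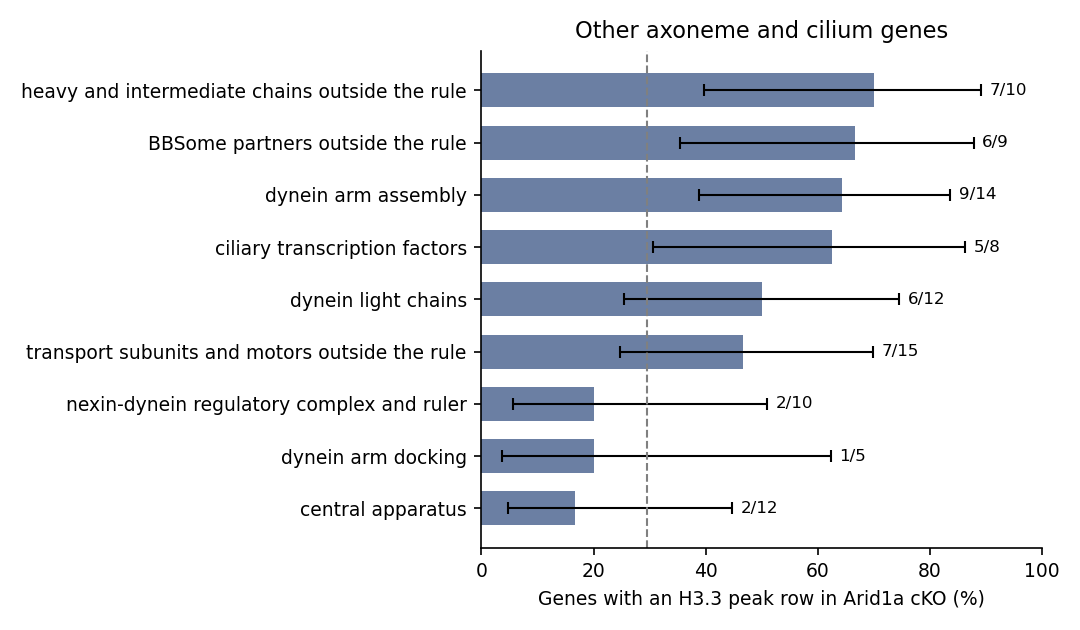
Share of genes (%, x axis) with an Arid1a cKO row within 1 kb of a start in 9 lists of axoneme and cilium genes that do not belong to the members (y axis). Bars are shares, error bars 95% Wilson intervals, labels give genes with a row over genes listed, and the dashed line marks 29.5% for all autosomal protein-coding genes. The 3 lists of axonemal structure stand at 16.7% to 20.0% and the other 6 between 46.7% and 70.0%. The intervals of those 3 include the line, as do those of the light chains and of the transport subunits and motors.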

How the data were processed

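H3.3 CUT&RUN libraries were grouped by sample titles. The authors trimmed reads with Trim Galore, aligned them to mm10 with Bowtie2, removed duplicates with Picard, called broad peaks per library with MACS2 against an IgG library of pachytene-enriched cells from another study, and overlapped replicates with bedtools. The deposited lists, 1 per genotype, hold 12183 rows (Arid1a cKO) and 228 rows (Arid1a WT). Each deposited row gives a fold enrichment (a ratio to background) and a −log10 q-value, and the −log10 p and score columns were not used. Depth is unknown. There were 0 unmatched per-sample columns.

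Members and lists were chosen with earlier results of these data known. A gene was given every row with a base within 1 kb of a GENCODE M21 transcript start, and is described by its row of highest fold. Every member is named. Distances run from the row centre to the nearest start. Shares carry 95% Wilson intervals, with no test because replicates were combined. Promoter letters are from RefSeq, and those compared at their coordinates matched the genome, with 0 differing. Other windows, transcripts, q thresholds and row support were tried as alternatives. Row assignment was tested on simulated data. Versions were Python 3.11.15, pandas 2.3.3, matplotlib 3.10.9, numba 0.67.0, scipy 1.17.1 and numpy 2.4.6.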

Additional observations from a re-analysis of the deposited data

How the results depend on the processing

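No paired analysis was possible because peaks were combined into 1 list per genotype, which also means that single replicates could not be omitted. Of 128 alternatives over 19 results, 111 moved a value by less than its interval or kept a count within 1.5 times, 17 moved it and 0 reversed it. The intervals are wide, so a share could change sides of that of all genes and still count as not moved. Intraflagellar transport went from 42.9% beside 29.5% to 21.4% beside 25.5% for the nearest coding start. Radial spoke genes stayed at 12.5%, first beside 29.5% and, with a −log10 q of at least 5, beside 9.56%. The count of members with a row ranged from 5 to 14, and that in Arid1a WT was 0 throughout. With a −log10 q of at least 5, 5 members and 16 genes of the other lists kept a row, and the shares were 0% of heavy chains, 14.3% of intraflagellar transport, 25.0% of Bbs genes, 18.2% of transport and Bbs genes together and 9.56% of all genes. With at least 3 they were 0% of heavy chains, 42.9% of intraflagellar transport, 25.0% of Bbs genes and 20.8% of all genes. Transport and Bbs genes together stood at 36.4%. The share of Bbs genes was then close to that of all genes, and that of intraflagellar transport was unchanged. Where only rows overlapped by another row counted, heavy chains stood at 0% and all genes at 27.1%. The share of all genes was 28.9% within 500 bp, 31.8% within 5 kb, 27.8% from 1 kb upstream to 100 bp downstream, 27.2% with 1 start per gene and 25.5% for the nearest coding start. The alternatives changed which rows and starts were counted, and the cause of the differences between groups was not tested. With a single combined list per genotype, an unknown depth and an IgG control from other cells, a missing row is not evidence that H3.3 was absent.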
